A study of Arabidopsis thaliana with 24 samples.

Results

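The stretch of chromosome 5 around AGO9 was described by its DNA methylation in Arabidopsis thaliana. It holds the annotated features that start between positions 6690000 and 7700000 of chromosome 5 in the TAIR10 genome, about 0.5 Mb on either side of AGO9 (AT5G21150, chr5:7192239-7198381, plus strand). Of the 69289 features of the deposited table, 473 met this rule: 312 genes, 152 transposable elements, 7 transposable element genes and 2 pseudogenes. Chromosome and start position alone decided which features met the rule, and no methylation value entered it. The region itself was chosen with earlier results of these data known. Genes made up 66.0% and transposable elements 32.1% of the region, against 65.8% and 31.7% of the other 43272 features of the chromosome arms. In the region, 72 of the 152 transposable elements overlapped a gene, pseudogene or transposable element gene, so a call there counts in each overlapping feature.

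Methylation was measured by bisulfite sequencing of sorted nuclei from plants of the Col-0 accession with the genotypes wt21, ago5, ago9 and ago59. The name ago59 reads as ago5 and ago9 combined, and the alleles of all mutants are not given in the sources used here. Sperm nuclei were taken from pollen at 35 days, with 50000 nuclei sorted. Shoot stem-cell nuclei came from 7-day seedlings and were gated on mCherry, a red fluorescent reporter, at 3000 to 4000 nuclei. What drives that reporter is not given in the sources used here. All plants grew under 16 h of light and 8 h of dark, and libraries were made from 1 to 5 ng of DNA. The labels list 24 sequenced samples, 8 of sperm and 16 of stem cells, with 2 replicate numbers per group. Each stem-cell group has 4 samples, because each replicate number is listed more than once there. The table, however, holds 1 set of calls for each genotype and cell type. Each of these 8 sets is called a pool below. A difference between pools therefore has no replicate check, and the 95% intervals given cover counting error only. Fewer methylated cells and a lower level in each cell cannot be told apart in a pool.

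Plant DNA is methylated at cytosines in 3 sequence contexts: CG, CHG and CHH, where H is any base but G. CG methylation is copied at replication by MET1, CHG methylation is kept by CMT3, and CHH methylation is placed by CMT2 and by small RNA-directed DNA methylation. ARGONAUTE (AGO) proteins bind small RNAs. AGO9 is known from the ovule, where it binds small RNAs derived largely from transposable elements and limits which cells take on a gamete-precursor fate. Genes near a mutated locus are inherited with it, which is the reason to ask whether differences shared by the ago9 and ago59 pools are denser beside AGO9 than in the rest of the arms. Most of a chromosome arm is gene-rich, while transposable elements crowd around the centromere. The arms were taken as the parts outside fixed pericentromere limits.

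The sequences of 3 features that carried the largest or the only differences of their kind were read from TAIR10.1 (RefSeq). In the first and second, capitals mark the CG dinucleotides whose cytosines gave the CG calls. In the last, capitals mark CHH cytosines on the printed strand. The first is the element AT5TE26080, whole, at chr5:7213958-7214069 on the plus strand. AT5G03405 is a long non-coding RNA gene of 357 bases, of which 300 bases at chr5:7462508-7462807 on the minus strand are shown. AT5TE27830 is a 356-base element, shown over 300 bases at chr5:7698405-7698704 on the plus strand.
AT5TE26080: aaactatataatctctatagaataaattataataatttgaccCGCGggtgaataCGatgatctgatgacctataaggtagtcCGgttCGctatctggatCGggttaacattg
AT5G03405: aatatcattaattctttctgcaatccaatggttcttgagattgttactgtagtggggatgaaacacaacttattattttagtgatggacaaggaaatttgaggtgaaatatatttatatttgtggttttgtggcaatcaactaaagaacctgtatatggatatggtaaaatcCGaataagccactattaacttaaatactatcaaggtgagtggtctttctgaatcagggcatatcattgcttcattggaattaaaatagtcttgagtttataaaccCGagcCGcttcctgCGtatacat
AT5TE27830: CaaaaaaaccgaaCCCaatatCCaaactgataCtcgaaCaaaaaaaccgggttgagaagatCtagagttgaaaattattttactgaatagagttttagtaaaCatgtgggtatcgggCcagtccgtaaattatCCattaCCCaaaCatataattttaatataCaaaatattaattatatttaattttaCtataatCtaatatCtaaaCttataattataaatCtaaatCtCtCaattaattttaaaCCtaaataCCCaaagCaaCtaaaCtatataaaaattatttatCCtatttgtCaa
The printed stretches hold 6 and 4 CG dinucleotides in the first and second and 37 marked CHH cytosines in the last. The CG values of AT5TE26080 and AT5G03405 thus rest on few sites.

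The pools held 204779091 to 303354876 calls over all features and 1835029 to 2548347 in the region, where 1 call is 1 cytosine read once. The region took 0.881% to 0.904% of the nuclear calls of every pool. Its median feature had 343 to 456 CG calls. Of 407 features with at least 100 calls in both wt21 pools, 0 had less than 0.5 or more than 2 times the wt21 depth in all 4 pools of ago9 and ago59. The rest of the arms also had 0, of 37020 features, so this count does not set the region apart. This check did not cover ago5, and single pools of called elements departed from wt21, as in AT5TE26810 with 0.452 (ago5 sperm) and 0.645 (ago59 sperm), AT5TE25060 with 0.594 (ago5 sperm) and AT5TE27830 with 1.48 (ago59 stem cells) times the wt21 depth. Over the whole of AGO9, call depth was 0.969 to 1.08 times that of wt21 in the mutant pools. These calls cover the whole gene, and no allele is given, so they cannot check the mutant label.

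A feature was called shared when its level in ago9 and in ago59 lay at least 10 percentage points from wt21, in the same direction, in both stem-cell and sperm nuclei. At least 10 calls were required in each of these 6 pools. Both mutants are set against the same wt21 pools, so part of any shared difference can come from wt21 itself. In the CG context 6 of 384 tested features of the region were called, 1.56% (exact binomial 95% interval 0.576% to 3.37%). In the rest of the arms 160 of 35067 were called, 0.456% (interval 0.388% to 0.532%). The lower limit of the region's interval lay above the share of the rest of the arms, though by little, and it no longer did when overlapping features were merged (0.560% against 0.578%), with a minimum of 5 calls (0.544% against 0.567%), within 0.25 Mb of AGO9 (0.334% against 0.462%) or for transposable elements and their genes alone (0.304% against 1.37%). Of the 6 features in the region 5 were lower and 1 was higher, while the rest of the arms had 84 higher and 76 lower. The 6 features are 5 separate loci, because AT5TE25975 lies inside AT5G21125.

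CHG calls were also more frequent in the region, on few features. Of 387 tested features 4 were called, 1.03% (interval 0.282% to 2.63%), against 51 of 34827 or 0.146% in the rest of the arms. These 4 features are 3 loci, of which 2 were lower and 1 was higher. At a difference of 20 points 0 features of the region were called against 0.0144% elsewhere. Fisher's exact test on the calls left 1 of 387, 0.258%, against 5 of 34827 or 0.0144% in the rest of the arms. The CHG lower limit fell below the share elsewhere with a minimum of 5 calls (0.268% against 0.278%) or 20 calls (0.0687% against 0.0718%). The same held for a difference of 5 points (0.571% against 0.626%) and within 1 Mb of AGO9 (0.145% against 0.148%). For genes alone it was 0.0083% against 0.0359%, and with Fisher's exact test 0.00654% against 0.0144%. In the CHH context 1 of 453 features was called, 0.221% (interval 0.00559% to 1.22%), against 53 of 41059 or 0.129%. The CHH share was not distinguishable from that of the rest of the arms at this number of features. Over the 3 contexts, 9 features at 8 loci were called in the region, which holds 473 features, tested or not. In the rest of the arms, with 43272 features, it was 251 features at 247 loci.

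The CG change was largest next to AGO9, at AT5TE26080, a 112-base element 15.6 kb past the end of the gene. It lies between AT5G21222 and CAM6, a calmodulin gene 405 bases away. Its CG level in stem-cell nuclei was 76.9% (wt21), 21.8% (ago5), 9.46% (ago9) and 0% (ago59) (Wilson 95% interval 0% to 2.87%). In sperm it was 98.7% (wt21), 47.0% (ago5), 25.6% (ago9) and 1.20% (ago59), from 74 to 130 calls per pool over both cell types. In both cell types the order from high to low was wt21, ago5, ago9 and ago59. The difference from wt21 was -67.4 points in ago9 stem cells and -97.5 points in ago59 sperm. CHG and CHH levels of this element were low, at most 15.1% and 3.57% in any pool. Its 12 CG cytosines, on both strands of 6 sites, gave 6.17 to 10.8 calls each per pool.

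On the other side, 6.8 kb before AGO9, lies AT5G21125 (chr5:7185048-7185428, minus strand), a short protein-coding gene with an element inside it. It sits between EIL2, a relative of the ethylene-signalling factor EIN3, and AT5G21130. CG levels of AT5G21125 in stem-cell nuclei were 45.5% (wt21), 19.6% (ago5), 16.2% (ago9) and 7.75% (ago59). In sperm they were 92.1%, 46.0%, 49.5% and 35.1% in the same order. The wt21 pool was the highest in both cell types, and the Wilson intervals of ago5 and ago9 overlapped in both. CHG levels moved the same way, with 18.5% (wt21), 2.98% (ago5), 4.76% (ago9) and 0% (ago59) in stem cells. In sperm the CHG levels were 40.6%, 9.52%, 8.23% and 3.33%. This gene and the element in it were the only 2 features of the region called in both CG and CHG.

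That element, AT5TE25975 at chr5:7185067-7185332, shared these calls. Its CG levels were 47.9%, 25.2%, 22.1% and 12.4% in stem-cell nuclei of wt21, ago5, ago9 and ago59, and 95.4%, 70.1%, 70.2% and 55.7% in sperm. Its CHH levels were 5.77%, 1.19%, 4.32% and 2.42% in stem cells and 9.98%, 3.54%, 3.22% and 0.654% in sperm, differences below 10 points. In all 3 contexts and both cell types wt21 was the highest pool.

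**Figure D1:**
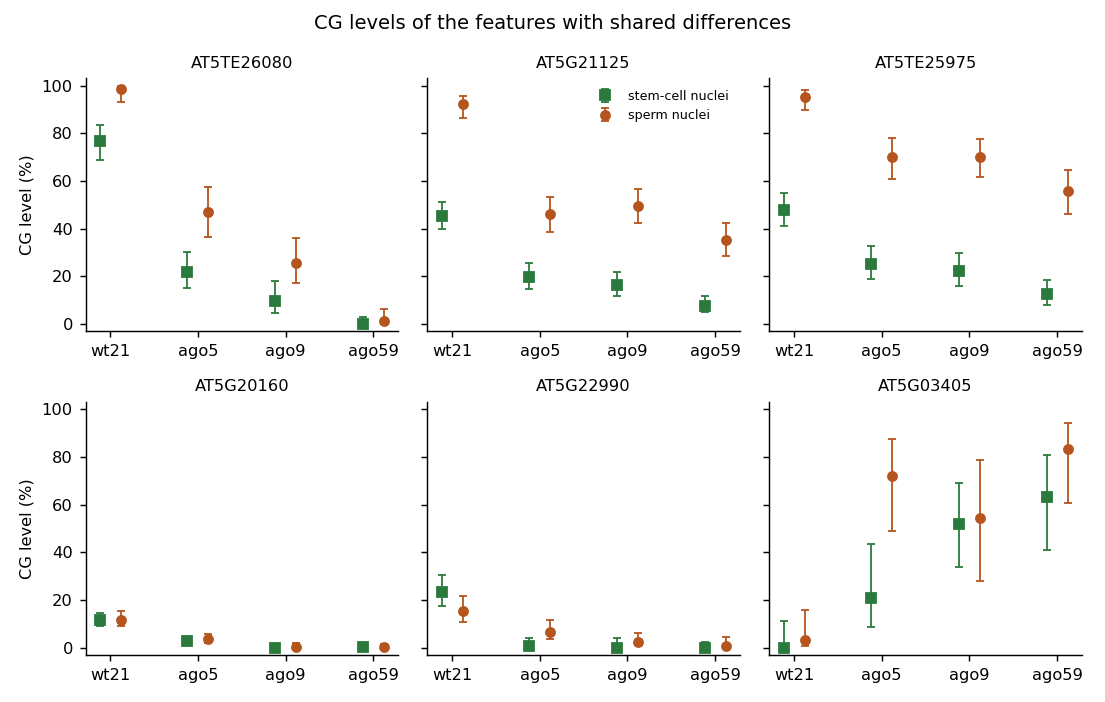
CG level in percent (y axis) of the 6 features with shared CG differences in the 4 genotypes (x axis), with squares for stem-cell nuclei, circles for sperm nuclei and bars for Wilson 95% intervals. In AT5TE26080 the level falls from 76.9% and 98.7% in wt21 to 0% and 1.20% in ago59, with ago5 and ago9 between. AT5G03405 is the only one in which wt21 is the lowest pool.

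Farther from AGO9, 2 protein-coding genes had lower CG levels from a low start. AT5G20160 lies at chr5:6803694-6805226 on the minus strand, next to SPX1, a sensor of phosphate status. Its CG level was 11.8% (wt21), 2.73% (ago5), 0% (ago9) and 0.202% (ago59) stem cells, from 435 to 553 calls. In sperm it was 11.8%, 3.51%, 0.526% and 0.295%. The ago9 and ago59 pools were near 0, with ago5 between them and wt21. AT5G22990, a C2H2-like zinc finger gene in the annotation, lies at chr5:7691494-7692468 on the minus strand. Its CG level was 23.5%, 0.769%, 0% and 0% in stem cells of wt21, ago5, ago9 and ago59, and 15.3%, 6.71%, 2.45% and 0.806% in sperm. Its CHG level did not exceed 2.94% in any pool.

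AT5G03405 was the only feature of the region with a shared rise in CG level. This long non-coding RNA gene starts 270 kb past the start of AGO9. Its CG level in stem-cell nuclei was 0% (wt21), 21.1% (ago5), 51.9% (ago9) and 63.2% (ago59). In sperm it was 3.12% (wt21), 72.2% (ago5), 54.5% (ago9) and 83.3% (ago59). The wt21 pools were lowest in both cell types, and the ago5 sperm pool lay above the ago9 one. Only 11 to 32 calls stand behind each value, and the interval of the ago9 sperm level ran from 28.0% to 78.7%.

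In the CHG context a further element rose and another fell, both on few calls. AT5TE26810, of 427 bases at chr5:7415658-7416084, had CHG levels of 42.3% (wt21), 40.9% (ago5), 70.8% (ago9) and 66.7% (ago59) stem cells. In sperm the levels were 57.9%, 76.9%, 71.4% and 71.4%, from 13 to 26 calls per pool. The ago5 pool was near wt21 in stem cells and the highest in sperm. AT5TE25060, of 97 bases at chr5:6906507-6906603, had CHG levels of 11.1% (wt21), 25% (ago5), 0% (ago9) and 0% (ago59) stem cells. In sperm it had 20.0% in wt21 and 0% in the other 3 genotypes, from 8 to 20 calls. The wt21 levels there are 2 and 3 methylated calls.

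The only shared CHH difference was that of AT5TE27830, near the far border of the region, 378 bases from the MYB37 gene. Its CHH level was 17.9% (wt21), 6.63% (ago5), 6.93% (ago9) and 2.06% (ago59) stem cells. In sperm it was 22.9%, 25%, 8.67% and 6.41%. The ago5 pool was low in stem cells and high in sperm, whereas ago9 and ago59 were low in both. Its CG level stayed between 83.3% and 100% in all 8 pools, and its CHG level was 33.3% in both wt21 pools and 7.35% to 23.5% in ago9 and ago59.

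The features nearest to the 10-point border show how the count depends on it. Just outside in CG were AT5TE27810, whose smallest difference was 9.33 points, and AT5TE27655 with 9.30 points. Just inside were AT5G20160 with 11.3 points and AT5G22990 with 12.9 points. In CHG, AT5TE27830 stood outside with 9.80 points and AT5TE25475 with 6.85, and AT5TE25060 inside with 11.1 and AT5TE26810 with 13.5. In CHH, AT5G20856 stood outside with 8.82 points and AT5TE25595 with 5.33, and AT5TE27830 inside with 11.0. All 4 differences had the same sign, whatever their size, in 126 of 384 features in CG, 32.8%, against 25.1% in the rest of the arms. In CHG it was 20.4% against 18.2%, and in CHH 20.5% against 19.8%.

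**Figure D2:**
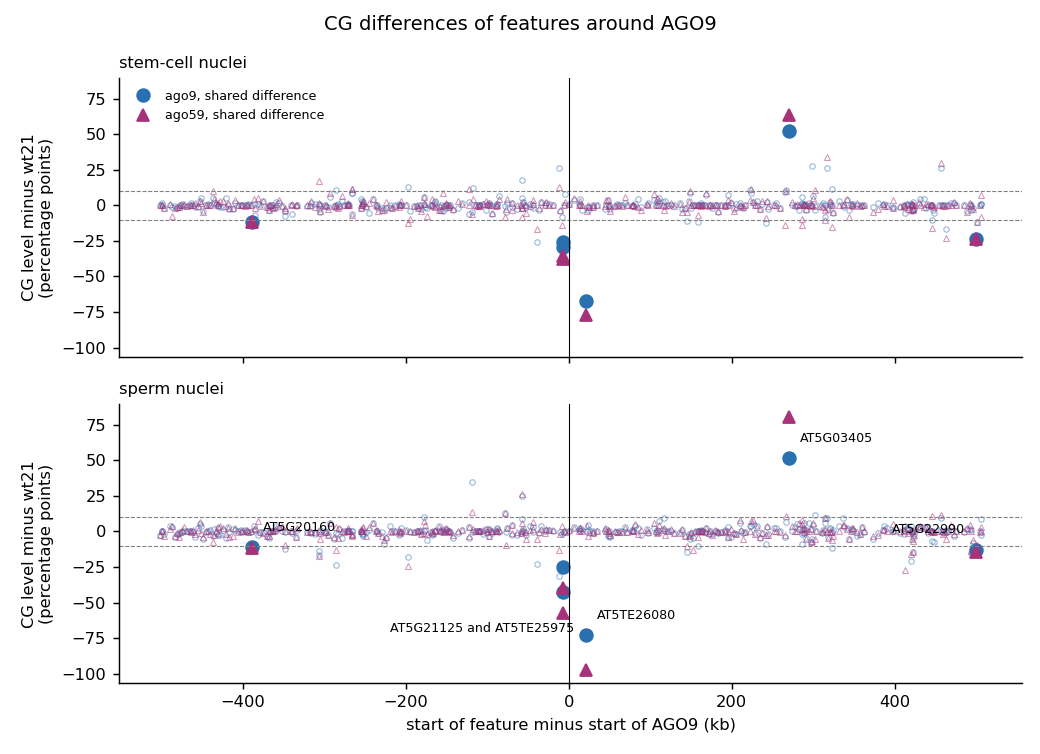
CG level of ago9 (circles) and ago59 (triangles) minus wt21, in percentage points (y axis), for 384 features by the distance of their start from that of AGO9 in kb (x axis), in stem-cell nuclei above and sperm nuclei below. Large filled symbols are the 6 features with shared differences, dashed lines mark 10 points, and the 3 features nearest to AGO9 hold the largest drops of the 6.

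The ago5 pools carry no ago9 mutation by their label and give a second set of pools without it. A feature was called separated by AGO9 genotype when all 4 pools of ago9 and ago59 lay at least 10 points to the same side of both wt21 and ago5 of their cell type. In CG 1 of 381 features of the region met this, AT5TE26080, 0.262% (interval 0.00664% to 1.45%), with 40 of 34587 or 0.116% in the rest of the arms. Its nearest pools differed by 12.4 points, those of ago5 and ago9 in stem cells. The Wilson intervals of these pools overlapped, at 15.1% to 30.4% in ago5 and 4.66% to 18.3% in ago9. In CHG 0 of 377 features met it, which allows up to 0.796%, against 2 of 34399 or 0.00581% elsewhere. In CHH 0 of 449 met it, which allows up to 0.668%, against 5 of 40755 or 0.0123%. The same rule for the AGO5 genotype, with ago5 and ago59 against wt21 and ago9, called 0 of 381, 0 of 377 and 0 of 449 features of the region in CG, CHG and CHH, which allows up to 0.787%, 0.796% and 0.668%. In the rest of the arms it called 0.0838%, 0.0174% and 0.00245%.

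With the ago5 pools in place of wt21 as the reference, a comparison added after the data were seen, the CG share was nearly the same but the features were not. It called 5 of 384 features, 1.30% (interval 0.424% to 3.01%), against 0.443% in the rest of the arms. Only 1 of these 5, AT5TE26080, was also shared against wt21. Of the other 4, the element AT5TE25590 at chr5:7073198-7074005 had 23.9% in ago5 but 40% in ago9 and 38.1% in ago59 stem cells, beside 44.4% in wt21. In sperm its CG levels were 25% in ago5, 61.3% in ago9, 40% in ago59 and 26.3% in wt21. In AT5TE25870, at chr5:7152939-7155014, both wt21 pools were highest and both ago5 pools lowest. At AT5G03485, 3 of the 4 ago9 and ago59 pools and both wt21 pools were at 0%, and the ago5 pools were at 33.3% and 15.8%. At AT5TE27670 the stem-cell levels were 45.0% (wt21), 38.9% (ago5), 28.6% (ago9) and 22.0% (ago59), and in sperm 29.6%, 43.8%, 29.2% and 24.1%. Its ago9 and ago59 pools were below both others in stem cells, while in sperm wt21 was close to them. In CHG the ago5 reference called 0 of 377 features, against 0.154% in the rest of the arms, and in CHH 1 of 449, AT5TE27625, 0.223% against 0.115%. The lower limit for CG, 0.424%, was below the share of the rest of the arms.

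Each mutant pool was also set against wt21 alone. In CG, 14 of 402 features were at least 10 points higher in ago5 stem cells and 14 lower, 3.48% each, where the rest of the arms had 2.74% and 2.77%. In ago9 stem cells 3.54% were higher and 3.28% lower, against 2.82% and 2.97%. In ago59 stem cells it was 4.00% and 4.25%, against 2.93% and 2.87%. In stem cells the region's shares in both directions together, 6.97% for ago5, 6.82% for ago9 and 8.25% for ago59, had intervals that held those of the rest of the arms, 5.51%, 5.79% and 5.8%.

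Sperm leaned to lower CG levels in the region. In ago9 sperm 7 of 395 features were higher, 1.77%, and 20 were lower, 5.06%, against 1.99% and 2.10% in the rest of the arms. In ago5 sperm 2.55% were higher and 4.08% lower, against 1.61% and 2.24%. In ago59 sperm 2.25% were higher and 3.75% lower, against 2.19% and 2.10%. Lower features outnumbered higher ones in the region in all 3 mutants, and ago5 had this lean too.

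In CHG, counted in either direction, the shares of the region's features that differed in stem cells were 6.73% for ago5, 5.25% for ago9 and 4.73% for ago59, against 4.38%, 4.26% and 4.45% in the rest of the arms. In sperm the region had 4.97%, 6.30% and 5.04%, against 3.71%, 3.91% and 4.17%. In CHH the region had 3.25%, 4.36% and 4.75% in stem cells of ago5, ago9 and ago59, against 3.02%, 3.36% and 3.10%. In sperm it had 3.96%, 4.35% and 4.99%, against 3.28%, 3.09% and 3.31%. All of these shares in the region were above those of the rest of the arms, and most intervals held the latter. The region's interval excluded the share of the rest of the arms in CG of ago5 sperm (4.38% to 9.57%, against 3.85% in both directions together) and of ago9 sperm (4.55% to 9.79%, against 4.09%), and in CHG of ago5 stem cells (4.48% to 9.65%) and ago9 sperm (4.12% to 9.16%).

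**Figure D3:**
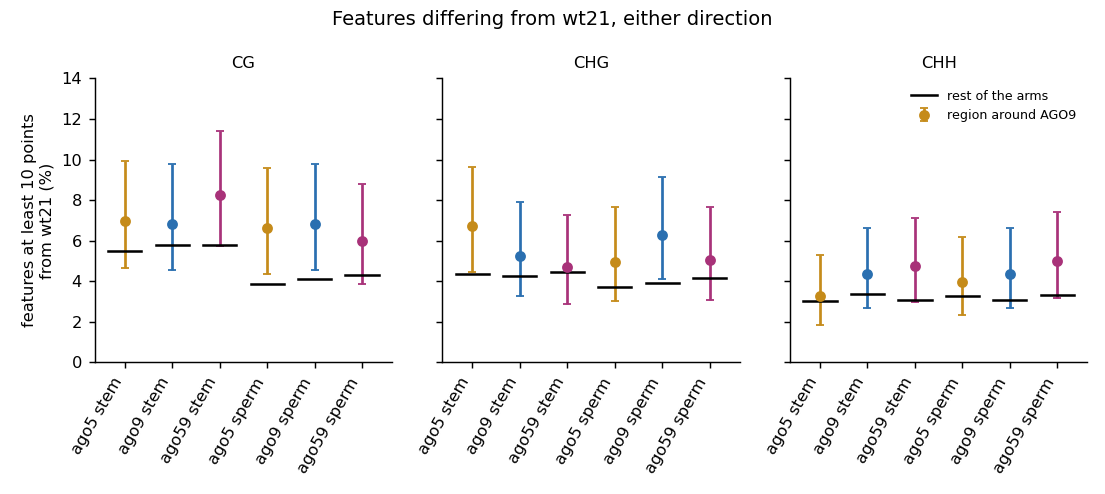
Share of features at least 10 points from wt21 in either direction, in percent (y axis), in each mutant and cell type (x axis) for the 3 contexts. Points are the region around AGO9 with exact binomial 95% intervals, and black lines are the rest of the arms. All points lie above their line, from 3.25% in CHH of ago5 stem cells to 8.25% in CG of ago59 stem cells.

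The known genes of the region kept their levels within a few points. AGO9 itself had CG levels of 2.16% (wt21), 2.28% (ago5), 2.88% (ago9) and 3.10% (ago59) stem cells, and 3.32%, 2.51%, 3.23% and 4.41% in sperm. AGO8 (AT5G21030), its close paralogue at chr5:7139817-7144272, had CG levels of 17.8%, 16.8%, 16.3% and 12.5% in stem cells and 23.2%, 20.3%, 20.6% and 17.7% in sperm. It was lowest in ago59 in both cell types, by 5.20 and 5.54 points from wt21. Its reads could in part be shared with related ARGONAUTE genes, depending on alignment. None of the 10 ARGONAUTE genes, of which these 2 lie in the region, had a shared difference, and 5.54 points was the largest difference among them. Of all genes in the rest of the arms 0.234% were called in CG, 0.0359% in CHG and 0.00708% in CHH. A count of 0 therefore does not set these 10 genes apart.

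Of the other known genes, DCL4, which makes small RNAs from double-stranded RNA, had CG levels of 27.8% to 33.0% in the 8 pools. NPH4, an auxin response factor also called ARF7, had the highest levels of this group, from 53.2% to 62.9%. The histone deacetylase gene HD2B had 0%, 0.336%, 3.52% and 4.39% in stem cells of wt21, ago5, ago9 and ago59, and 0.613%, 0.421%, 2.71% and 2.29% in sperm. All 4 of its ago9 and ago59 pools were above all 4 others, by less than 10 points. The floral homeotic gene PI did not exceed 1.94%, and MS1, needed for pollen development, ranged from 3.39% to 7.26%. CHG levels of these 7 genes were at most 1.5%.

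Mean levels over whole classes were compared next. Over 70 transposable elements of the region that had 10 or more CG calls in every pool, the mean CG level was 33.9% (wt21), 32.9% (ago5), 33.4% (ago9) and 31.6% (ago59) stem cells. In sperm it was 43.7%, 42.1%, 41.1% and 40.9%. The difference from wt21 was -2.65 ± 1.84 points in ago9 sperm (95% half-width from counting), -2.84 ± 1.77 in ago59 sperm and -2.31 ± 1.72 in ago59 stem cells. In ago9 stem cells it was -0.518 ± 1.78 points, within counting error. In the rest of the arms these differences were -0.256 ± 0.176, 0.0444 ± 0.179 and -0.106 ± 0.176 points, and -0.264 ± 0.184 in ago9 stem cells. The region's means rest on few elements, and with the median the differences were 1.86 points in ago9 sperm, -5.04 in ago9 stem cells and -10.2 in ago59 stem cells. In ago59 sperm the median gave -2.44 points, near the mean. Over 302 genes the CG means were 10.7% to 10.8% in stem cells and 12.8% to 13.0% in sperm.

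In CHG, 65 elements averaged 17.1% (wt21), 16.3% (ago5), 16.9% (ago9) and 15.7% (ago59) stem cells. In sperm they averaged 15.6%, 14.6%, 14.5% and 14.8%. In CHH, 131 elements averaged 5.75% to 6.25% in stem cells and 4.81% to 5.53% in sperm. Of these CHG and CHH differences of ago9 and ago59, only that of ago59 sperm in CHH, -0.705 ± 0.639 points, exceeded its counting error, and the rest of the arms had -0.694 ± 0.0708 there. With the median this difference was 0.0473 points. In CHG the ago59 sperm difference, -0.829 points, was -3.65 points over all calls and -3.19 with a minimum of 1 call. In wt21, sperm was above stem cells by 9.83 ± 1.74 points in CG of the region's elements and by 7.26 ± 0.171 in the rest of the arms. For genes this difference was 2.31 ± 0.204 points in the region and 2.40 ± 0.0228 in the rest of the arms. Gene means of ago9 and ago59 in CHG and CHH lay at most 0.321 points from wt21. Beyond counting error in CHG were ago59 stem cells (-0.198 ± 0.163) and sperm (-0.321 ± 0.207). In CHH they were ago9 stem cells (0.123 ± 0.0787), ago9 sperm (-0.281 ± 0.113) and ago59 sperm (-0.203 ± 0.127). The rest of the arms had -0.0537, -0.185, -0.00494, -0.0551 and -0.142 points in that order.

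The remaining comparisons, by window, distance and chromosome, were added after the values above were seen. The arms outside the region were cut into 91 windows of 1.01 Mb with at least 100 tested features. Windows that cross a border of the region or of a pericentromere hold only the features outside it. In CG, 4 windows had a share of shared differences at or above the region's 1.56%, 7 had at least 6 called features, and 31 had none. The median window had 0.258%. The highest, 2.46%, was such a part window, on chromosome 3 with 203 tested features. The part window before the region, on chromosome 5, had 1.71% of 234 tested features. Of the 7 windows with at least 6 called features, 4 were among the 20 windows of chromosome 5. In CHG, 0 of 91 windows reached the region's 1.03%, and the highest had 0.877%. The region's 4 called CHG features are 3 loci, and the highest count in a window was 3 features. In CHH, 27 of 94 windows reached 0.221%.

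By distance, the CG calls were densest within 50 kb of AGO9, where 3 of 37 features were called, 8.11% (interval 1.70% to 21.9%), all lower. These are AT5TE26080 and the locus of AT5G21125 with AT5TE25975. Between 50 and 100 kb 0 of 37 were called, and from 100 to 500 kb 3 of 308, 0.974%. From 0.5 to 1 Mb, 1 to 2 Mb and 2 to 5 Mb, in the arms of chromosome 5, the shares were 1.85%, 1.25% and 0.874%, and beyond 5 Mb 0.735%. The CG share thus did not drop at the border of the region. In CHG it was 5.88% within 50 kb (2 of 34, interval 0.720% to 19.7%), both from the locus of AT5G21125 with AT5TE25975. From 100 to 500 kb the CHG share was 0.637%, then 0 of 372 from 0.5 to 1 Mb and 0.144% from 1 to 2 Mb.

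The denser calls extended over much of chromosome 5. Outside the region, its arms had 64 of 7408 features called shared in CG, 0.864% (interval 0.666% to 1.10%), which overlaps the region's interval. For CHG they had 0.136%, below the lower limit of the region's interval. Over the whole chromosome, pericentromere included, 115 of 11509 features had shared CG differences, 0.999% (interval 0.826% to 1.20%), against 0.369% (0.313% to 0.433%) on the other 4 chromosomes. Chromosome 5 held 43.2% of such features and 22.0% of those tested. For separation by AGO9 genotype it held 36 of 67 called features, 53.7%, at a share of 0.318% (0.223% to 0.440%), against 0.0772% (0.0525% to 0.110%) on the others. For the AGO5 genotype it held 3 of 39, a share of 0.0265% against 0.0897% on the others.

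The CG features separated by AGO9 genotype were spread unevenly along chromosome 5. The bins include the pericentromere, 9 to 16 Mb, which lies past AGO9, while those before AGO9 are arm only. Distance from AGO9 is therefore mixed with place on the chromosome. The share separated was 0.286% in the arms of chromosome 5 and 0.386% in its pericentromere, and for shared differences it was 0.898% and 1.21%. From 0.5 to 14 Mb past AGO9, each bin had 0.494% to 0.658% separated features, except for 0.0923% from 4 to 6 Mb, and from 14 to 16 and 16 to 20 Mb it was 0.270% and 0.0704%. Before AGO9 it was 0 of 571 from 0.5 to 2 Mb, 0.134% from 2 to 4 Mb and 0.164% from 4 to 8 Mb. The 1 Mb centred on AGO9 had 0.266%. For shared differences the bins from 0.5 to 12 Mb past AGO9 had 1.34% to 1.79%, except for 0.0917% from 4 to 6 Mb, and the 1 Mb centred on AGO9 had 1.58%. Several stretches of chromosome 5 thus had shares like that of the region. Loss of AGO9 function, sequence inherited with the ago9 mutation, and earlier differences between the plant lines cannot be told apart in these pools.

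**Figure D4:**
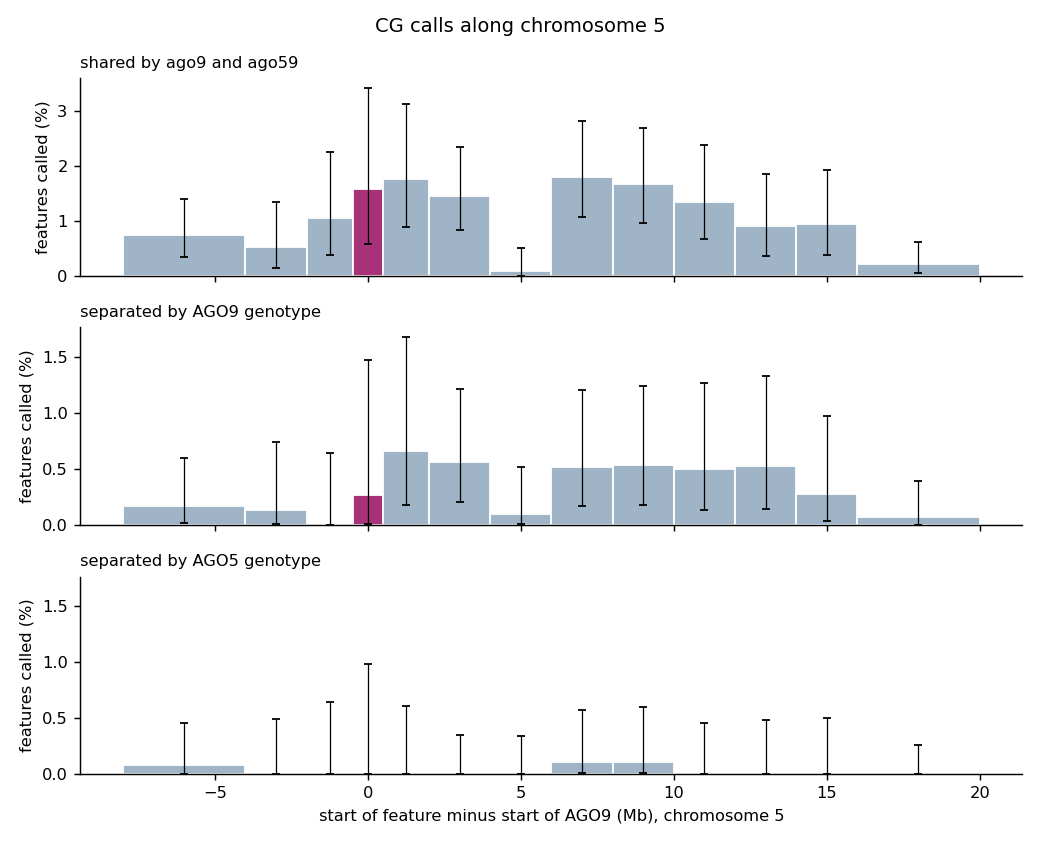
Share of CG features called, in percent (y axis), by distance from the start of AGO9 in Mb along chromosome 5 (x axis): shared by ago9 and ago59 (top), separated by AGO9 genotype (middle) and by AGO5 genotype (bottom). Bars are bins with exact binomial 95% intervals, with the 1 Mb centred on AGO9 in purple, which is at 1.58% and 0.266% in the upper panels. Several bins past AGO9 are as high or higher, up to 1.79% and 0.658%. The bins past AGO9 include the pericentromere of chromosome 5.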

How the data were processed

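Bisulfite sequencing was applied to stem-cell and sperm nuclei of wt21, ago5, ago9 and ago59. The deposited table gives call counts as whole numbers, methylated and total, for each feature, context and pool, not normalized by the authors, per the file headers. Levels were computed as methylated over total calls, in percent. Calls are not reads, since a read adds a call for each cytosine it covers. Trim Galore, Bismark, bedtools 2.30.0 and TAIR10 are named in the submitters' processing notes. How duplicate reads and incomplete conversion were treated, and whether replicates and the further stem-cell samples were summed, is not given in the sources used here. The labels list the molecule as RNA, while the protocol describes DNA. All 48 call columns were used, and the other 24 value columns, the authors' levels, were not.

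Pericentromere limits were 11.5 to 17.5, 1 to 7, 10.5 to 17, 1.5 to 6.5 and 9 to 16 Mb for chromosomes 1 to 5. Of the region's features, 321 have a locus in TAIR10.1 (RefSeq), all with the same start and end. With 1 pool per group no test across replicates was possible. Levels have Wilson and shares of features exact binomial 95% intervals, and limits for a count of 0 are 3 counts of the total. Features share reads and neighbours, so intervals over features are too narrow. The region, the gene lists and the rules were chosen with earlier results of these data known. Features named are 7 known genes whatever their values, those called, those nearest the threshold, and some chosen after their values were seen. A further known gene and a sequence are not reported here. Alternatives covered the call minimum, the threshold, Fisher's exact test, logit-scale centring (offset 0.01), feature type, region width, arm definition, the ago5 reference, and medians. The code was checked on simulated data. Analyses used Python 3.11.15, numpy 2.4.6, scipy 1.17.1, pandas 2.3.3 and matplotlib 3.10.9.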

Additional observations from a re-analysis of the deposited data

Results flagged for a closer look

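At 2 elements of the region ago9 and ago59 differed from wt21 in opposite directions in the cell types, and the difference between cell types was not tested. At the element AT5TE25965, inside the region before AGO9, the CG level of ago9 was above wt21 by 26.5 points in stem cells and differed by -31.2 points in sperm. For ago59 the differences were 12.9 and -13.5 points. Its levels in wt21, ago5, ago9 and ago59 were 37.1%, 59.4%, 63.6% and 50.0% in stem cells and 75.0%, 62.5%, 43.8% and 61.5% in sperm, from 16 to 44 calls. The wt21 pool was the lowest in stem cells and the highest in sperm.

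At AT5TE26810 the CHH level of ago9 differed from wt21 by 14.6 points in stem cells and -10.4 points in sperm, and that of ago59 by 18.0 and -18.9 points. Its CHH levels were 8.19%, 14.2%, 22.8% and 26.2% in stem cells and 27.8%, 19.0%, 17.4% and 8.90% in sperm of wt21, ago5, ago9 and ago59. The order of the genotypes was reversed between the cell types, from 142 to 327 calls per pool. Such opposite differences were found for 1 of 384, 0 of 387 and 1 of 453 features of the region in CG, CHG and CHH, and for 18 of 35067, 33 of 34827 and 33 of 41059 in the rest of the arms.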

How the results depend on the processing

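No paired analysis was possible because the table holds 1 set of calls per group, and for the same reason no replicate could be left out. The shared CG share of the region stayed above that of the rest of the arms under all 14 alternatives, from 1.04% with 20 points to 3.12% with 5 points, and the calls against ago5 were mostly other features. The lower limit of its interval fell below the share elsewhere for merged features, 5 calls, 0.25 Mb, transposable elements and their genes, the chromosome 5 arms and the ago5 reference. For CHG this limit fell below the share elsewhere for 5 calls, 20 calls, 5 points, genes alone and 1 Mb. It also did so for 20 points, Fisher's exact test and the ago5 reference. In CHG the share was 0% against 0.0144% with 20 points, 0.258% against 0.0144% with Fisher's exact test, 3.75% against 0.619% for transposable elements and their genes, and 0% against 0.154% with ago5 as reference. In CHH it was 0% with 20 points (0.00731% elsewhere), Fisher's exact test (0.0219%), genes alone (0.00708%) and 0.25 Mb (0.131%), and 0.111% against 0.131% with 1 Mb. Separation by AGO9 genotype in CG was 0% with 20 points (0.0289% elsewhere), 0.262% against 0.396% with 5 points, 0% against 0.0719% for genes, and 0.262% against 0.287% for the rest of the chromosome 5 arms. With 1 called feature, these orders rest on it alone.

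For the mean differences of transposable elements, medians gave in CG -5.04 (ago9 stem), 1.86 (ago9 sperm), -10.2 (ago59 stem) and -2.44 points (ago59 sperm). In CHG they gave -4.11 (ago9 stem), 0.852 (ago9 sperm), -4.58 (ago59 stem) and -0.0255 points (ago59 sperm). In CHH they gave -0.380 (ago9 stem), 0.348 (ago9 sperm), -0.572 (ago59 stem) and 0.0473 points (ago59 sperm). CHG of ago59 sperm was -3.65 points over all calls and -3.19 with a minimum of 1 call. The cause was not tested. At 10 calls 1 call moves a level by 10 points, so the features with fewest calls are the least certain.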
